A study of Macaca fascicularis and Macaca mulatta with 24 samples.

Results

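Oligodendrocyte and myelin genes were followed in the cerebral cortex of cynomolgus macaques (Macaca fascicularis) after an experimental stroke. The set held MBP, MOBP, MAL, CLDN11, MAG, MOG, CNP, OLIG1 and OLIG2, and a probe was taken as a member's when the gene name or the bracketed symbol of its description matched exactly. All 9 genes were on the arrays, read by 11 of 20217 gene probes, and all 9 were among the 15747 genes that passed the filter on dim signals. Every animal had its right middle cerebral artery occluded, so placebo animals carried the same stroke as treated ones, and placebo or 2.6 mg/kg TatNR2B9c was given intravenously 5 min later. TatNR2B9c is a peptide in which a cell-penetrating Tat segment carries the tail of the NMDA receptor subunit NR2B, designed to keep the scaffold PSD-95 off the receptor. Cortex was taken from the right side, which was ischemic, and from the left, which was not, 1 h or 6 h after occlusion, which gave 8 groups of 3 animals: placebo right and left at 1 h, placebo right and left at 6 h, and the same 4 groups with TatNR2B9c. Animals without occlusion were not analysed here, so the left side of the same animal served as the control for the right. The labels number the animals 1 to 3 within each treatment and time, and the numbers were read as 12 animals with 1 right and 1 left array each; whether an animal was sampled at both times is not stated.

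Oligodendrocytes wrap axons of the central nervous system in myelin, a stack of compacted membrane that speeds conduction and helps feed the axon. Structural proteins hold the membrane layers together, adhesion proteins face the axon and the outside of the sheath, and the transcription factors OLIG1 and OLIG2 set and keep the identity of the lineage. In cortex these cells are densest in the deep layers and the underlying white matter, and they are known to be sensitive to loss of blood flow.

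RNA of each sample was labelled with Cy5 and hybridised beside a universal rhesus macaque (Macaca mulatta) reference RNA in Cy3, without a dye swap. A value is the log2 ratio of sample over reference, so 1 unit is a doubling, and a ratio of one gene says nothing of its level beside another gene. The probes are 60 bases long and placed on the rhesus build rheMac2. Of the 11 member probes, those of MAG and MOBP hold the letters AATAAA, which are those of the signal for cutting and polyadenylating a transcript, and 12.8% of all gene probes do on the strand listed. The last 30 bases of both are shown here 5′ to 3′, with these letters in capitals, because the other member probes lack them; no match to a transcript was made, and where in a transcript the probes lie was not determined.
MAG: tacaaaagggacatgaAATAAAtgccccga
MOBP: tgtctgttgtggaAATAAAaccttctgggg

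The placebo 1 h, the placebo 6 h and the TatNR2B9c arrays were processed with different versions of the Agilent Feature Extraction software and shared no scan day with each other. They are called 3 campaigns here, a word the file headers do not use. In the reference channel, probes well above background made up 15.7% to 51.7% on the placebo 1 h arrays, 84.3% to 92.5% at placebo 6 h, 51.8% to 74.5% at TatNR2B9c 1 h and 72.3% to 99.3% at TatNR2B9c 6 h. On 3 of the placebo 1 h arrays (left of animals 1 and 3, right of animal 3) this share was at most 22.2%, and they are called the arrays of weak reference signal. In Cy5 the shares of the groups in that order were 45.4% to 76.7%, 81.9% to 93.3%, 46.1% to 72.6% and 53.0% to 97.7%. Among the lowest were TatNR2B9c left arrays 1 and 2 at 1 h (55.5% and 46.1%) and left array 3 at 6 h (53.0%). The SD of log2 ratios over all genes was, for the groups in that order, 0.36 to 1.09, 1.50 to 1.67, 0.81 to 1.11 and 0.97 to 1.39. Right and left arrays of an animal shared a slide and a scan day in all animals but those of placebo at 6 h. There the left arrays of animals 1, 2 and 3 were on slides 3, 4 and 6 and the right arrays on slides 4, 5 and 5, and the left arrays of animals 1 and 3 were scanned on another day than all 3 right arrays, so that side runs largely with slide and scan day in that group and in the 6 h comparison of treatments built on it. Differences between right and left cortex were made within a campaign, whereas placebo 6 h against 1 h and every comparison of TatNR2B9c with placebo cross campaigns, and there treatment or time and campaign cannot be told apart. The medians of 15 neuron markers and of 12 astrocyte markers were above 0 on all 24 arrays (0.083 to 3.95 and 0.043 to 2.57), as was the median of the 9 oligodendrocyte and myelin genes (0.086 to 2.70), while that of 10 markers of meninges and choroid plexus ran from -3.41 to 0.060. Markers of neurons, astrocytes and oligodendrocytes were thus above the reference on the arrays labelled cortex.

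The median of the 9 genes was 0.49 ± 0.51 (SD, n = 3) in placebo left cortex at 1 h and 0.83 ± 0.53 on the right. In placebo cortex at 6 h the medians were 2.26 ± 0.11 (left) and 2.15 ± 0.58 (right). The 1 h groups given TatNR2B9c had 0.46 ± 0.26 (left) and 1.04 ± 0.23 (right), and its 6 h groups had 1.11 ± 0.87 (left) and 1.94 ± 0.35 (right). From lowest to highest the order was TatNR2B9c left 1 h, placebo left 1 h, placebo right 1 h, TatNR2B9c right 1 h, TatNR2B9c left 6 h, TatNR2B9c right 6 h, placebo right 6 h and placebo left 6 h. Each neighbouring pair in this order differed by less than the larger of its SDs, and TatNR2B9c left 6 h had the widest spread, from 0.41 to 2.09.

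**Figure D1:**
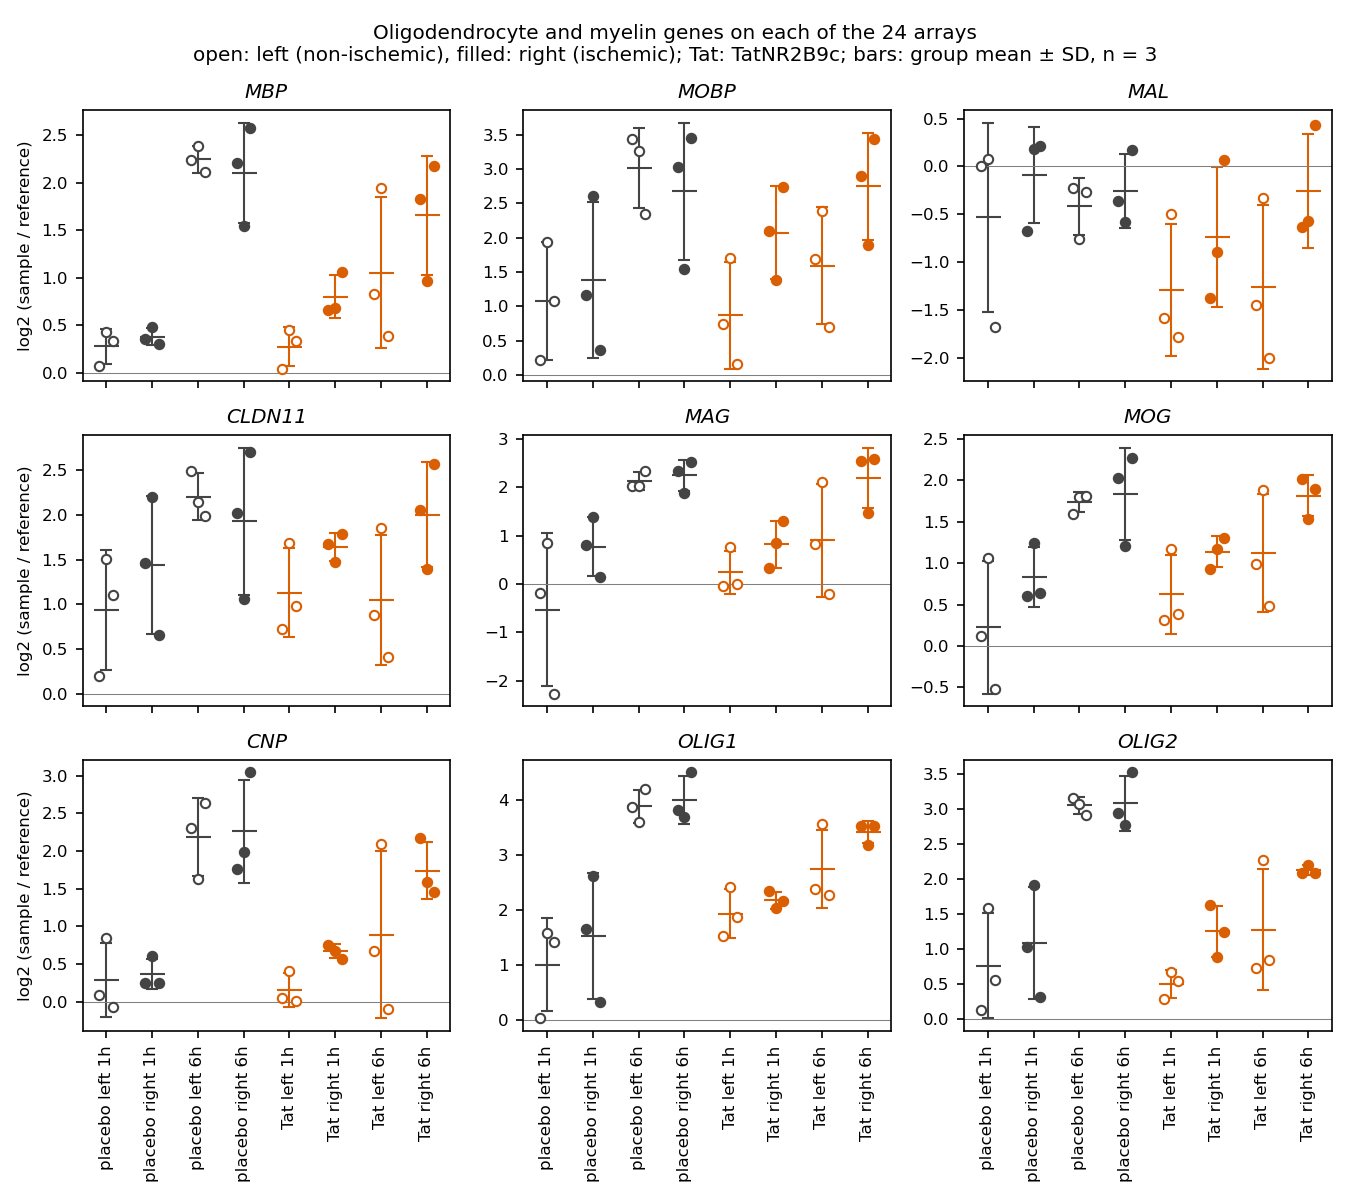
Log2 ratio of sample over reference (vertical axis) of each of the 9 genes on each of the 24 arrays, by group (horizontal axis); open points are left and filled points right cortex, dark points placebo and orange points TatNR2B9c, and bars give the group mean ± SD over 3 animals. For 8 of the 9 genes both placebo 6 h groups sit above both placebo 1 h groups in their means, whereas under median centring of the arrays the median difference of the 9 was -0.93 (left) and -1.21 (right), with that of all genes at -0.89 and -0.79; all MAL means lie below 0.

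The first comparison asked how ischemic differed from non-ischemic cortex within an animal. All 9 genes had a higher mean on the right in TatNR2B9c animals at 6 h, with a median difference of 0.85 and a range from 0.60 for MBP to 1.29 for MAG. All 9 were also above 0 in TatNR2B9c animals at 1 h (median 0.53) and in placebo animals at 1 h (median 0.44), and 6 of 9 were in placebo animals at 6 h (median 0.076). Under the other normalizations 9 of 9 stayed above 0 with TatNR2B9c at 6 h, 7 to 9 with TatNR2B9c at 1 h, 9 in placebo animals at 1 h and 5 to 7 at 6 h. The placebo 1 h value rested on single arrays: without the 3 arrays of weak reference signal the median was -0.047 with 3 of 9 above 0. With 1 array left out it was 0.034 (left of animal 1), 0.054 (right of animal 2) or 0.24 (left of animal 3) at the low end, and 0.72 (right of animal 3) or 0.75 (left of animal 2) at the high end. For placebo at 6 h, the 1 slide with arrays of both sides (right of animal 1, left of animal 2) gave a median of 0.14 with 5 of 9 above 0, and the fit with scan day as a block gave 0.039. The latter also rests on the left array of animal 2, the only left array scanned on the day of the right ones. None of the 9 genes passed limma's test in any of the 4 groups at a Benjamini-Hochberg adjusted p under 0.05, and neither did any other gene. At an unadjusted p under 0.05, 1 member passed in placebo animals at 1 h and 0 did in the other 3 groups. In these bulk samples, a change in the share of cells of a type and a change in RNA per cell cannot be told apart.

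Read against all 15745 genes tested, estimates above 0 made up 52.9% in placebo animals at 1 h, 39.1% at 6 h, 43.5% with TatNR2B9c at 1 h and 61% at 6 h. The share called was 0% in each group at the adjusted threshold, and 1.33%, 3.84%, 4.46% and 3.25% in the same order at the unadjusted one. In TatNR2B9c animals at 6 h the 9 differences lay at percentile 98.6 or above among all genes, where the median gene was at 0.065. They lay at percentile 87.5 or above with TatNR2B9c at 1 h (median gene -0.033), between 67.8 and 99.9 in placebo at 1 h (median gene 0.010), and between 11.4 and 86.3 in placebo at 6 h (median gene -0.049). So the genes stood high in the list of differences in both TatNR2B9c groups and, with all arrays in, in placebo animals at 1 h, with no gene of the list past the test.

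The animals of one group did not go the same way. The median right minus left of the 9 genes was 0.91, 0.33 and -0.028 in placebo animals 1, 2 and 3 at 1 h and -0.13, -0.30 and 0.46 at 6 h. With TatNR2B9c it was 0.70, -0.0029 and 0.80 at 1 h and 1.17, -0.46 and 1.79 at 6 h. At 6 h, TatNR2B9c animals 1 and 3 had all 9 genes higher on the right, and animal 2 had all 9 lower. All 9 were also higher on the right in TatNR2B9c animals 1 and 3 at 1 h and in placebo animal 3 at 6 h. The share of all genes above 0 was 62.2%, 48.3% and 50.04% in TatNR2B9c animals 1, 2 and 3 at 6 h, and 43.5% and 51.4% in animals 1 and 3 at 1 h. In placebo animal 3 at 6 h it was 49.8%. Leaving out the left array of TatNR2B9c animal 2 at 6 h gave a median difference of 1.36 for the group in place of 0.85, and leaving out that of animal 3 gave 0.63. The left array of animal 3 was dim, with 53.0% of probes well above background in Cy5, the lowest share at 6 h.

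**Figure D2:**
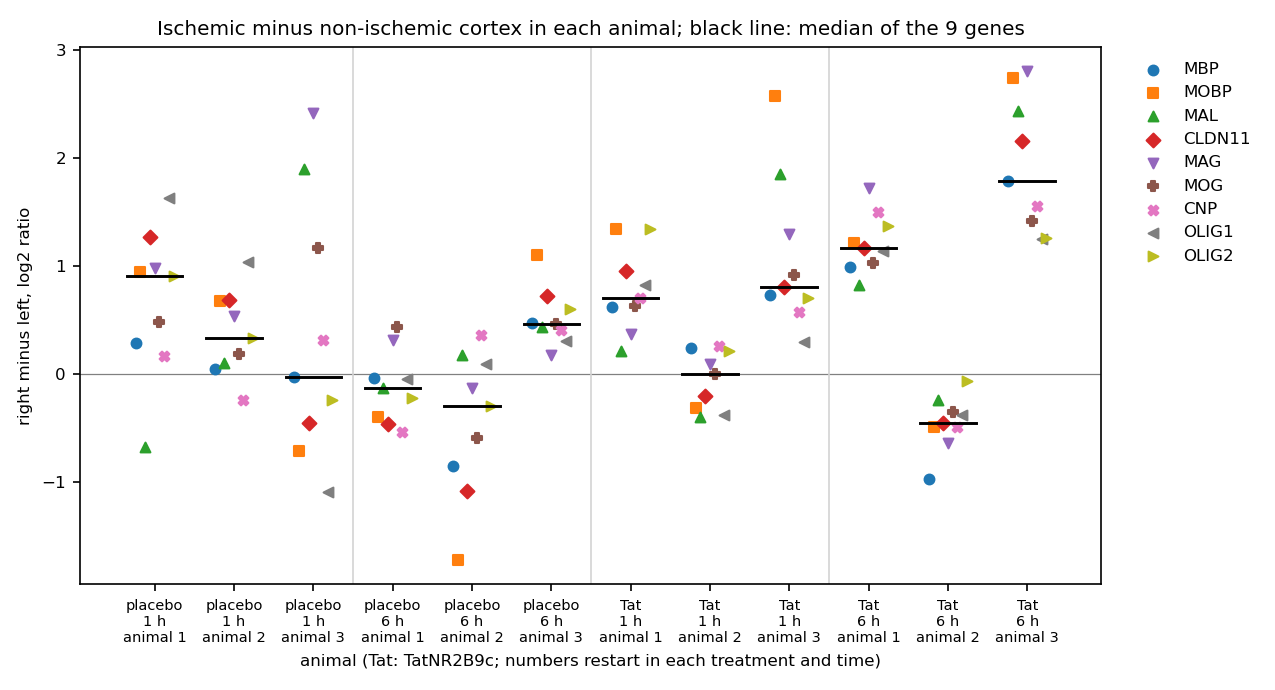
Right minus left difference in log2 ratio (vertical axis) of each of the 9 genes in each of the 12 animals (horizontal axis), with the median of the 9 as a black line. The points of TatNR2B9c animals 1 and 3 at 6 h all lie above 0 and those of animal 2 all below, and the medians run from -0.46 to 1.79.

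Counts over animals differed between groups. Right exceeded left in all 3 animals for 2 of 9 genes in placebo at 1 h (MOG and MAG), for 0 of 9 in placebo at 6 h, for 4 of 9 with TatNR2B9c at 1 h (MBP, MAG, CNP and OLIG2) and for 0 of 9 with TatNR2B9c at 6 h. The share of all genes with this pattern was 9.45%, 8.71%, 15.6% and 9.01%. The 3 right arrays lay wholly above the 3 left arrays for 3 of 9 genes with TatNR2B9c at 1 h (MBP, CNP and OLIG2), against 7.5% of all genes. Signals were dim there. On left arrays 1, 2 and 3 log2 Cy5 less background was 4.43, 4.90 and 6.62 for MBP and 4.97, 4.91 and 5.90 for CNP. For OLIG2 it was 6.42, 5.36 and 8.73. All were flagged well above background, and the part of dim signal in this separation was not tested. In the other 3 groups the sides overlapped for all 9 genes, where 3.7% (placebo 1 h), 12.8% (placebo 6 h) and 2.34% (TatNR2B9c 6 h) of all genes were apart in either direction.

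Over all 12 animals the 9 genes were on average higher on the right, with a median difference of 0.48 and a range from 0.27 (MBP) to 0.83 (MAG), where 50% of all genes were above 0. None passed (smallest adjusted p = 0.888, with 0% of all genes called). At an unadjusted p under 0.05, 4 of 9 passed (MAG, MOG, OLIG2 and MAL), against 3.8% of all genes. Right exceeded left in at least 8 of 12 animals for 7 of 9 genes, against 18.7% of all genes, and in 7 of 12 for MOBP and CLDN11. The direction of the median held under each of the alternatives that could move it, from 0.38 without the 3 arrays of weak reference signal to 0.78 in Cy5 alone. Under equal spread of the arrays 8 of 9 genes were above 0. With the animal as a block, which leaves these estimates unchanged by design, the smallest adjusted p was 0.856.

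A difference between treatments in this right minus left value was tested as an interaction. At 6 h the 9 genes' right minus left was higher with TatNR2B9c than with placebo in all 9 estimates, by a median of 0.83, where 65.4% of all genes were above 0 and the median gene was at 0.13. At 1 h the median was 0.12, with 6 of 9 above 0 against 42.5% of all genes. None of the 9 passed at either time (smallest adjusted p = 0.931 at 6 h and 1.0000 at 1 h), nor did any at an unadjusted p under 0.05. Of all genes, 0% were called at each time at the adjusted threshold, and 1.73% at 1 h and 4.25% at 6 h at the unadjusted one. The 95% intervals at 6 h ran from -0.15 to 2.62 for CLDN11, the smallest p of the set, and from -0.86 to 1.97 for OLIG1, the largest. At 6 h the median was 0.79 with slide and 0.85 with scan day as a block. The placebo part of both values rests on the left array of animal 2 alone, and the blocks leave the TatNR2B9c part unchanged by design. The 1 h median turned negative with the software's processed signals (-0.70) and under equal spread (-0.13).

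Among the structural proteins, MBP (myelin basic protein) binds the inner faces of the myelin membrane together. It was read at chr18:70431795-70431854 (minus strand), with Cy5 well above background on 23 of 24 arrays and the Cy3 reference on 17. MBP had no placebo 1 h array with Cy3 well above background. Its mean log2 ratio in placebo animals was 0.27 ± 0.19 (left) and 0.38 ± 0.089 (right) at 1 h, and 2.24 ± 0.14 (left) and 2.10 ± 0.53 (right) at 6 h. In TatNR2B9c animals the MBP means were 0.27 ± 0.21 (left) and 0.80 ± 0.22 (right) at 1 h, and 1.05 ± 0.80 (left) and 1.65 ± 0.62 (right) at 6 h. Each SD is over 3 animals, here and for the other genes. Right minus left of MBP in placebo animals 1, 2 and 3 was 0.29, 0.046 and -0.028 at 1 h and -0.034, -0.85 and 0.47 at 6 h. With TatNR2B9c the differences were 0.62, 0.24 and 0.73 at 1 h and 0.99, -0.97 and 1.79 at 6 h. MBP was thus higher on the right in all 3 TatNR2B9c animals at 1 h, and at 6 h animal 2 had the lowest of the 12 values and animal 3 the highest. The fitted difference was 0.53 (SE 0.33, adjusted p = 0.929) with TatNR2B9c at 1 h and 0.60 (SE 0.33, adjusted p = 0.939) at 6 h. A further MBP probe, at chr18:70467506-70467565 (minus strand), was well above background in Cy5 on 14 of 24 arrays, and its group means stayed between -0.23 and 0.073 with right minus left between -0.26 and 0.25. The MBP probes therefore disagreed, and every MBP value given rests on the brighter one. The array annotation names different MBP transcript variants for the 2 probes, so they may read different transcripts, which was not tested.

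MOBP, a small basic protein that oligodendrocytes make for compact myelin, was read at chr2:96953029-96953088 (minus strand). Placebo means of MOBP were 1.08 ± 0.86 (left) and 1.38 ± 1.14 (right) at 1 h, and 3.01 ± 0.58 (left) and 2.68 ± 1.00 (right) at 6 h. The TatNR2B9c means were 0.87 ± 0.78 (left) and 2.07 ± 0.68 (right) at 1 h, and 1.59 ± 0.85 (left) and 2.75 ± 0.78 (right) at 6 h. Right and left arrays of MOBP overlapped in all 4 combinations of treatment and time. In placebo animals MOBP right minus left was 0.95, 0.68 and -0.71 at 1 h and -0.40, -1.72 and 1.104 at 6 h. In TatNR2B9c animals it was 1.34, -0.32 and 2.58 at 1 h and 1.22, -0.49 and 2.74 at 6 h. MOBP had the widest spread between animals of the 9 genes, from -1.72 in placebo animal 2 at 6 h to 2.74 in TatNR2B9c animal 3 at 6 h. Its fitted right minus left was 1.20 (SE 0.65, adjusted p = 0.929) with TatNR2B9c at 1 h and 1.15 (SE 0.65, adjusted p = 0.939) at 6 h, against 0.30 (SE 0.65, adjusted p = 0.9999) and -0.34 (SE 0.65, adjusted p = 0.9998) in placebo animals at 1 h and 6 h.

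CLDN11 forms the tight junctions between the layers of the sheath, and its probe lies at chr2:116588125-116588184 (minus strand). Its placebo means were 0.94 ± 0.68 (left) and 1.44 ± 0.77 (right) at 1 h, and 2.21 ± 0.26 (left) and 1.93 ± 0.83 (right) at 6 h. Its TatNR2B9c means were 1.13 ± 0.50 (left) and 1.65 ± 0.16 (right) at 1 h, and 1.05 ± 0.73 (left) and 2.01 ± 0.59 (right) at 6 h. The sides overlapped in each combination of treatment and time. Right minus left of CLDN11 was, in placebo animals, 1.27, 0.69 and -0.46 at 1 h and -0.47, -1.09 and 0.72 at 6 h. The TatNR2B9c animals had 0.95, -0.20 and 0.80 at 1 h and 1.17, -0.46 and 2.16 at 6 h. The sign differed between animals of one group in all 4 groups. The fit gave 0.96 (SE 0.47, adjusted p = 0.939) with TatNR2B9c at 6 h and -0.28 (SE 0.47, adjusted p = 0.9998) with placebo at 6 h.

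MAL is a raft-associated membrane protein that takes part in sorting myelin components, and epithelial cells and T cells make it too. It was read at chr13:96149748-96149807 (plus strand). Its means in placebo cortex were -0.53 ± 0.99 (left) and -0.092 ± 0.50 (right) at 1 h, and -0.42 ± 0.30 (left) and -0.26 ± 0.39 (right) at 6 h. Its means in TatNR2B9c cortex were -1.29 ± 0.69 (left) and -0.74 ± 0.73 (right) at 1 h, and -1.26 ± 0.85 (left) and -0.26 ± 0.60 (right) at 6 h. MAL was the only member with all 8 group means below 0. MAL right minus left in placebo animals was -0.68, 0.11 and 1.90 at 1 h and -0.13, 0.18 and 0.44 at 6 h. In animals given TatNR2B9c it was 0.22, -0.40 and 1.85 at 1 h and 0.82, -0.24 and 2.44 at 6 h. Placebo animal 1 at 1 h was low and placebo animal 3 at 1 h high, against the direction of OLIG1 in the same animals (1.63 and -1.09). The fitted difference at 6 h was 1.00 (SE 0.51, adjusted p = 0.939) with TatNR2B9c and 0.16 (SE 0.51, adjusted p = 0.9998) with placebo.

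Of the surface proteins, MAG faces the axon on the innermost layer and restrains neurite growth. Its probe lies at chr19:41812138-41812197 (plus strand) and was well above background in both channels on all 24 arrays. MAG had placebo means of -0.53 ± 1.59 (left) and 0.78 ± 0.62 (right) at 1 h, and 2.13 ± 0.19 (left) and 2.25 ± 0.32 (right) at 6 h. It had TatNR2B9c means of 0.24 ± 0.45 (left) and 0.83 ± 0.49 (right) at 1 h, and 0.91 ± 1.17 (left) and 2.20 ± 0.63 (right) at 6 h. Left and right overlapped throughout, and the spread was widest in placebo left cortex at 1 h. Its right minus left in placebo animals was 0.98, 0.53 and 2.41 at 1 h and 0.31, -0.13 and 0.17 at 6 h. With TatNR2B9c, right minus left of MAG was 0.37, 0.091 and 1.29 at 1 h and 1.72, -0.64 and 2.80 at 6 h. Right exceeded left in 10 of 12 animals, the most of the 9 genes, and the exceptions were placebo animal 2 and TatNR2B9c animal 2 at 6 h. The fitted difference was 1.31 (SE 0.62, adjusted p = 0.9999) in placebo animals at 1 h and 1.29 (SE 0.62, adjusted p = 0.939) with TatNR2B9c at 6 h. Without the left array of placebo animal 3 at 1 h, which read -2.27 where the other left arrays read -0.18 and 0.85, the first of these was 0.44. This array is one of the 3 of weak reference signal.

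MOG sits on the outermost surface of the sheath and is a known target of autoantibodies. A pair of probes read it, at chr4:29408596-29408655 (plus strand) and chr4:29407928-29407987 (plus strand), 668 bases apart. From the brighter probe the placebo means were 0.22 ± 0.80 (left) and 0.83 ± 0.36 (right) at 1 h, and 1.74 ± 0.12 (left) and 1.84 ± 0.56 (right) at 6 h. The means with TatNR2B9c were 0.62 ± 0.48 (left) and 1.14 ± 0.19 (right) at 1 h, and 1.12 ± 0.71 (left) and 1.82 ± 0.25 (right) at 6 h. The MOG arrays of both sides overlapped in every combination of treatment and time. Placebo animals had MOG right minus left of 0.49, 0.18 and 1.17 at 1 h and 0.43, -0.59 and 0.46 at 6 h. TatNR2B9c animals had 0.63, -0.0029 and 0.92 at 1 h and 1.03, -0.35 and 1.41 at 6 h. Right exceeded left in 9 of 12 animals by either probe. The fitted difference with TatNR2B9c at 6 h was 0.70 (SE 0.38, adjusted p = 0.939). From the dimmer probe the mean right minus left over 12 animals was 0.31, against 0.48 from the brighter one.

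CNP, the cyclic nucleotide phosphodiesterase of uncompacted myelin, was read at chr16:52084263-52084322 (plus strand), with Cy5 well above background on 23 of 24 arrays and Cy3 on 17. Of the placebo 1 h arrays, only the left one of animal 2 had CNP well above background in Cy3. CNP means in placebo animals were 0.29 ± 0.49 (left) and 0.37 ± 0.20 (right) at 1 h, and 2.19 ± 0.52 (left) and 2.26 ± 0.68 (right) at 6 h. CNP means in TatNR2B9c animals were 0.16 ± 0.22 (left) and 0.67 ± 0.093 (right) at 1 h, and 0.89 ± 1.11 (left) and 1.74 ± 0.38 (right) at 6 h. The right arrays lay wholly above the left ones with TatNR2B9c at 1 h and overlapped them elsewhere. Its right minus left was, in placebo animals 1, 2 and 3, 0.16, -0.24 and 0.32 at 1 h and -0.54, 0.36 and 0.41 at 6 h. Under TatNR2B9c it was 0.70, 0.26 and 0.57 at 1 h and 1.50, -0.49 and 1.55 at 6 h. The left array behind the 1.55 was the array on which CNP was not well above background in Cy5. CNP was higher on the right in all 3 TatNR2B9c animals at 1 h. The fit gave 0.51 (SE 0.43, adjusted p = 0.929) there and 0.85 (SE 0.43, adjusted p = 0.939) at 6 h.

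The transcription factors OLIG1 and OLIG2 lie close together, with probes at chr3:13484089-13484148 (minus strand) and chr3:13527171-13527230 (minus strand), 43.1 kb apart. OLIG1 had placebo means of 1.01 ± 0.85 (left) and 1.53 ± 1.15 (right) at 1 h, and 3.88 ± 0.30 (left) and 4.001 ± 0.44 (right) at 6 h. OLIG1 means with TatNR2B9c were 1.93 ± 0.45 (left) and 2.18 ± 0.16 (right) at 1 h, and 2.74 ± 0.71 (left) and 3.41 ± 0.20 (right) at 6 h. The sides overlapped for OLIG1 throughout. OLIG1 right minus left in placebo animals was 1.63, 1.04 and -1.09 at 1 h and -0.050, 0.090 and 0.31 at 6 h. OLIG1 in TatNR2B9c animals gave 0.82, -0.38 and 0.29 at 1 h and 1.14, -0.38 and 1.25 at 6 h. Placebo animal 1 at 1 h had the highest OLIG1 difference and placebo animal 3 at 1 h the lowest. OLIG2 had placebo means of 0.76 ± 0.75 (left) and 1.09 ± 0.80 (right) at 1 h, and 3.06 ± 0.12 (left) and 3.09 ± 0.39 (right) at 6 h. By group, OLIG2 means with TatNR2B9c were 0.50 ± 0.20 (left) and 1.25 ± 0.37 (right) at 1 h, and 1.28 ± 0.86 (left) and 2.13 ± 0.067 (right) at 6 h. For OLIG2 the right arrays lay wholly above the left ones with TatNR2B9c at 1 h, and the sides overlapped elsewhere. OLIG2 right minus left in placebo animals was 0.91, 0.33 and -0.24 at 1 h and -0.22, -0.30 and 0.60 at 6 h. OLIG2 in TatNR2B9c animals gave 1.34, 0.21 and 0.70 at 1 h and 1.37, -0.061 and 1.26 at 6 h. With TatNR2B9c at 1 h OLIG2 was higher on the right in all 3 animals, while OLIG1 was higher in animals 1 and 3. At 6 h TatNR2B9c animal 2 had the OLIG2 difference nearest to 0 of the 9 genes. The fitted right minus left with TatNR2B9c at 6 h was 0.85 (SE 0.41, adjusted p = 0.939) for OLIG2 and 0.67 (SE 0.48, adjusted p = 0.939) for OLIG1.

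**Figure D3:**
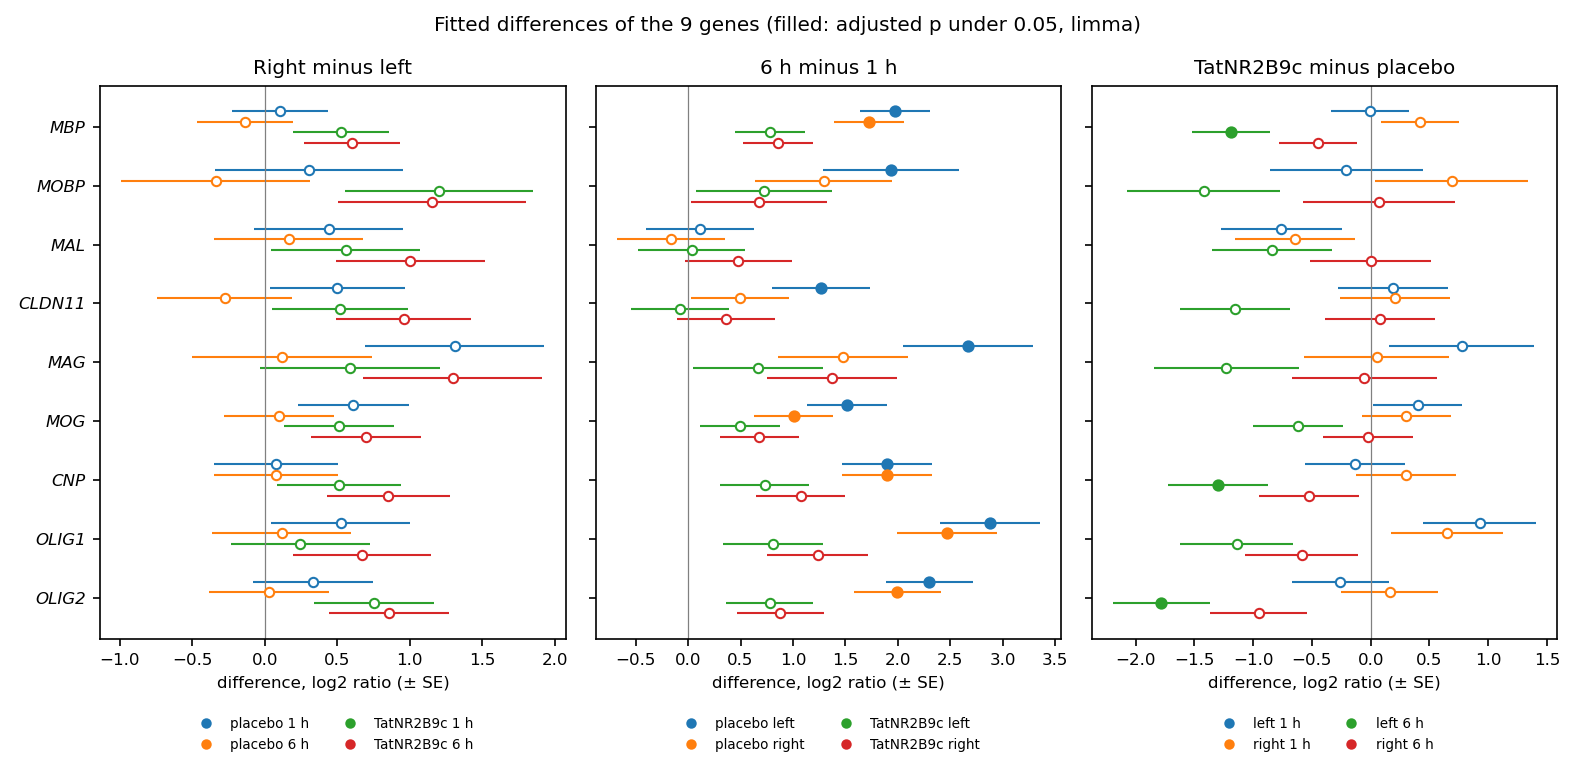
Fitted differences in log2 ratio (horizontal axis, ± SE) of the 9 genes (vertical axis) for right minus left, 6 h minus 1 h and TatNR2B9c minus placebo; filled points have a limma adjusted p under 0.05. No right minus left point is filled, 13 of the placebo 6 h minus 1 h points are, and 3 of the TatNR2B9c minus placebo points (left, 6 h) are; 0 of the placebo 6 h minus 1 h points would be filled under equal spread of the arrays or in Cy5 alone.

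The second comparison set 6 h against 1 h. In placebo left cortex 8 of 9 genes rose, with OLIG1 by 2.88 (SE 0.48, 7.35-fold, adjusted p = 9.0e-05), MAG by 2.67 (SE 0.62), OLIG2 by 2.30 (SE 0.41) and MBP by 1.97 (SE 0.33). MOBP rose by 1.93, CNP by 1.90, MOG by 1.52 and CLDN11 by 1.27 (adjusted p = 0.0289), and MAL was at 0.11 (SE 0.51, adjusted p = 0.864). In placebo right cortex 5 of 9 rose: OLIG1 by 2.47 (SE 0.48, adjusted p = 5.9e-04), OLIG2 by 1.99, CNP by 1.89, MBP by 1.73 and MOG by 1.00 (adjusted p = 0.0417). The others did not pass: MAG was at 1.48 (SE 0.62, adjusted p = 0.064), MOBP at 1.29 (SE 0.65, adjusted p = 0.12), CLDN11 at 0.49 (SE 0.47, adjusted p = 0.417) and MAL at -0.16 (SE 0.51, adjusted p = 0.822). Of all genes, 30.7% were called higher at 6 h on the left and 21.4% on the right.

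The 2 placebo time points belong to different campaigns, so that time and campaign cannot be told apart here. All 3 of the 6 h arrays lay above all 3 of the 1 h arrays for 8 of 9 genes on the left and 5 of 9 on the right, against 37.1% and 31.9% of all genes, and 9 and 8 estimates were above 0 against 56% and 52.8%. The neuron markers moved with the set: 15 of 15 were called higher on either side, with medians of 2.41 (left) and 2.25 (right), and 6 (left) and 5 (right) of 12 astrocyte markers were. Their part in the result was not tested. When the ratios were scaled to equal spread on all arrays, 0 of 9 genes were called on either side and the median was 0.49 against 1.93 on the left and 0.053 against 1.48 on the right. In Cy5 alone 0 of 9 were called, with medians of 0.048 and -0.35, and after median centring the medians were -0.93 and -1.21, with all genes at -0.89 and -0.79. Without the 3 arrays of weak reference signal 3 of 9 genes were called on the left and 4 of 9 on the right.

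With TatNR2B9c the times share a campaign, but all 1 h arrays were on slides 7, 8 and 9 of 1 scan day, and 4 of the 6 arrays at 6 h were on slide 10 of another day. None of the 9 genes passed. In right cortex all 9 were higher at 6 h (median 0.86), where 54.8% of all genes were above 0, and 5 of 9 had arrays apart (MOG, MAG, CNP, OLIG1 and OLIG2) against 17.1% of all genes. The smallest adjusted p was 0.177 for OLIG1, at 1.23 (SE 0.48), and 0.121% of all genes were called. At an unadjusted p under 0.05, 5 of 9 passed (MBP, MAG, CNP, OLIG1 and OLIG2) against 19.4% of all genes. In left cortex 8 of 9 were higher at 6 h (median 0.72; CLDN11 at -0.080), against 48.2% of all genes, 1 of 9 had arrays apart (OLIG2) against 7.21%, and 1 of 9 (MBP) passed unadjusted against 16.1%. No gene was called there (0%). The left median was -0.10 with the software's processed signals, and the right one was 0.019 after median centring with 5 of 9 above 0. With array weights 3 of 9 were called on the right, against 13% of all genes. Blocking on slide put the 9-gene median at 0.60 on the right and 0.25 on the left, blocking on scan day at 0.57 and 0.30, and 0 of 9 were called either way; these values rest on animal 3 at 6 h, whose arrays alone share a slide and a scan day with 1 h arrays. Markers of other cells were higher at 6 h as well. On the right 15 of 15 neuron markers (median 1.00), 13 of 14 genes of axon and node of Ranvier (0.87) and 11 of 12 astrocyte markers (0.62) were above 0, and on the left 14 of 15 (0.64), 13 of 14 (0.65) and 7 of 12 (0.11). None of them passed, and their part in the result was not tested.

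The third comparison, TatNR2B9c against placebo, crosses campaigns throughout. In left cortex at 6 h, OLIG2 fell by 1.78 (SE 0.41, 3.44-fold, adjusted p = 0.00556), CNP fell by 1.30 (SE 0.43, 2.46-fold, adjusted p = 0.0333) and MBP fell by 1.19 (SE 0.33, 2.28-fold, adjusted p = 0.0154). On the 3 placebo arrays OLIG2 read 3.17, 3.08 and 2.93, and on the 3 TatNR2B9c arrays 0.72, 2.27 and 0.84, so the groups were apart. CNP read 2.30, 1.62 and 2.64 against 0.68, 2.09 and -0.099, and MBP 2.24, 2.39 and 2.11 against 0.83, 1.94 and 0.39. On the array that read -0.099, that of animal 3, CNP was not well above background in Cy5 (log2 Cy5 less background 3.19). In all 3 genes the highest TatNR2B9c array was that of animal 2, which overlapped the placebo arrays for CNP. In the same comparison 14 of 15 neuron markers were below 0 (median -0.60, 2 called lower), as were 13 of 14 genes of axon and node of Ranvier (-0.60, 3 called lower), while 10 of 10 markers of meninges and choroid plexus were above 0 (1.06, 4 called higher) and 9 of 12 astrocyte markers (0.45, 1 called higher). Their part in the result was not tested.

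The other 6 genes did not pass: MOBP was at -1.42 (SE 0.65, adjusted p = 0.118), MAG at -1.23 (SE 0.62, adjusted p = 0.157), CLDN11 at -1.16 (SE 0.47, adjusted p = 0.0789), OLIG1 at -1.14 (SE 0.48, adjusted p = 0.089), MAL at -0.84 (SE 0.51, adjusted p = 0.246) and MOG at -0.62 (SE 0.38, adjusted p = 0.25). Estimates above 0 were 0 of 9, against 44.2% of all genes, and 4 of 9 had arrays apart and lower (MBP, OLIG1, OLIG2 and CLDN11), against 18%. Of all genes 13.6% were called lower. The count of 3 depended on single arrays: it was 1 (OLIG2) without TatNR2B9c left array 1 or without array 3, and 6 without array 2. It was 0 with the software's processed signals, with the deposited ratios, under equal spread and when the 2 groups were fitted alone, and 5 after median centring, where 19% of all genes were called. MBP was at -0.52 (adjusted p = 0.0543) when its probes were averaged.

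In the other treatment comparisons none of the 9 genes passed. In right cortex at 6 h the median was -0.053, with 2 of 9 above 0 against 51.8% of all genes, and OLIG1 (-0.59) and OLIG2 (-0.95, SE 0.41, adjusted p = 0.199) had arrays apart and lower, against 11.8% of all genes. OLIG2 was the 1 gene of 9 past an unadjusted p of 0.05 (20.7% of all genes), and 4.28% of all genes were called. In right cortex at 1 h the median was 0.30, with 8 of 9 above 0 against 53.2%, MBP arrays apart and higher against 12.2%, 0 of 9 unadjusted against 13.7% and 1.57% of all genes called. In left cortex at 1 h the median was -0.0030, with 4 of 9 above 0 against 54.4%, 0 of 9 apart against 17.3%, 0 of 9 unadjusted against 10.3% and 0.889% of all genes called. Both 1 h medians were negative in Cy5 alone (-0.70 right and -1.22 left) and after median centring (-2.46 and -2.78), where 7 (right) and 8 (left) of 9 genes were called. Median centring moved most genes the same way there: all genes had medians of -0.77 and -0.97, and 67.1% and 77.1% of them were called, so that the members' counts are near the share of all genes.

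**Figure D4:**
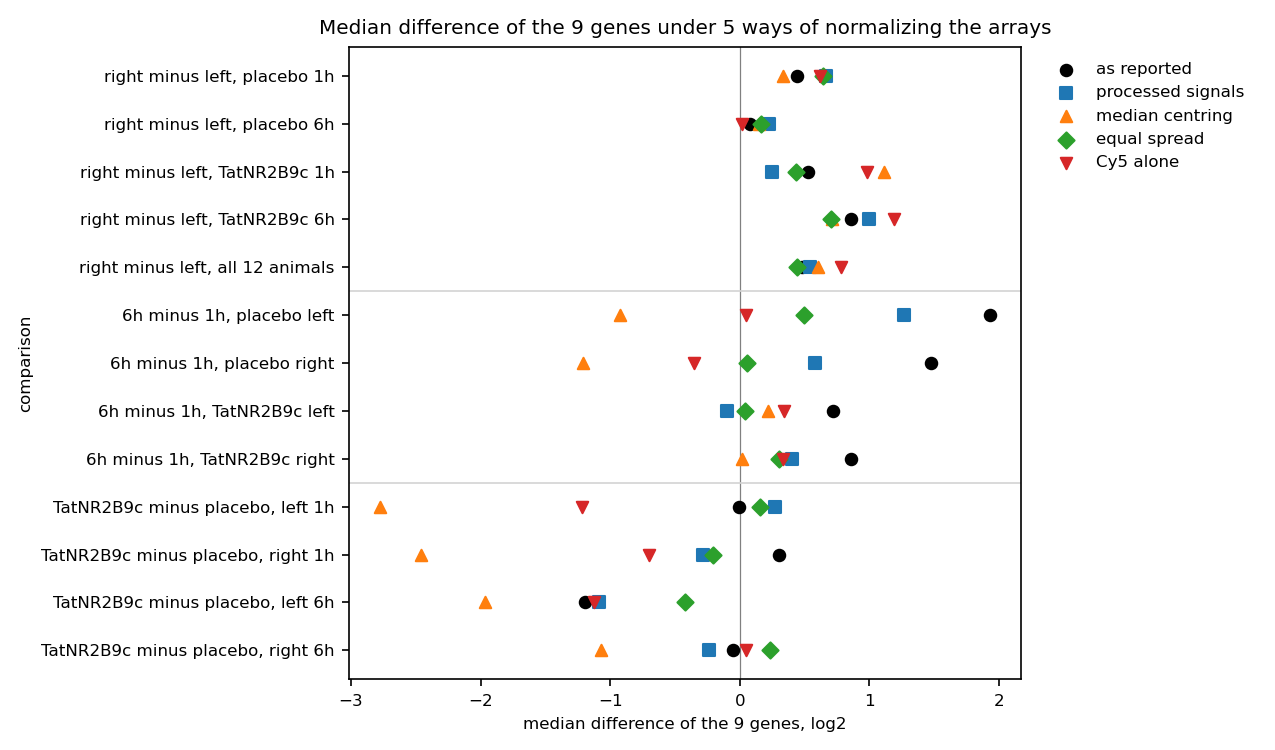
Median difference of the 9 genes in log2 (horizontal axis) in 13 comparisons (vertical axis) under 5 ways of normalizing the arrays. The right minus left medians lie above 0 under all 5, whereas placebo 6 h minus 1 h runs from -0.93 to 1.93 on the left and TatNR2B9c minus placebo at 1 h from -2.78 to 0.27 on the left; the lowest value of each is that of median centring, where the median of all genes was -0.89 and -0.97.

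Other genes of the lineage were counted in lists. Of 18 other myelin proteins, 17 genes of myelin lipid synthesis, 17 oligodendrocyte transcription factors, 9 progenitor genes and 16 receptors and enzymes, 0 passed in any right minus left comparison. With TatNR2B9c at 6 h, 16 of 18 other myelin proteins were higher on the right (median 0.39), 14 of 16 receptors and enzymes (0.39), 14 of 17 transcription factors (0.19), 7 of 9 progenitor genes (0.17) and 12 of 17 lipid genes (0.14). The members' median there was 0.85 and that of all genes 0.065. Lists of other cells lay as high as most of these: 12 of 12 astrocyte markers (0.37), 14 of 14 genes of axon and node of Ranvier (0.35) and 13 of 15 neuron markers (0.33) were higher on the right.

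Of the other lists, the markers of further cell types had 0 genes past the test in right minus left as well. In placebo cortex from 1 h to 6 h, HAPLN2, which links the matrix at nodes of Ranvier, rose by 3.97 (SE 0.52) on the left and 3.495 on the right, and SOX8, a transcription factor of the lineage, by 3.27 and 3.56. Of the other myelin proteins, 11 of 18 rose and 3 of 18 fell on the left, and 12 and 2 on the right, while of the lipid genes 1 of 17 rose and 6 fell on the left and 0 and 3 on the right. Of all genes, 23.3% were called lower on the left and 19.4% on the right, beside the 30.7% and 21.4% called higher. In TatNR2B9c against placebo left cortex at 6 h, 5 of 18 other myelin proteins were lower and 2 higher, where 13.6% of all genes were called lower and 1680 of 15745 higher. TMEM10, a membrane protein of myelinating oligodendrocytes, fell by 1.94 (SE 0.58) and HAPLN2 fell by 1.91 (SE 0.52), while KL, a marker of choroid plexus, rose by 2.01. In right cortex at 6 h the tetraspanin CD82 rose by 0.99 and NKX6-2, a transcription factor of the lineage, fell by 0.91, while the astrocyte glutamate transporter SLC1A2 rose by 2.04 and FOLR1, a folate receptor of choroid plexus, by 1.58. At 1 h, TatNR2B9c against placebo, the neuronal microtubule protein MAP2 rose by 2.19 on the left and 1.95 on the right, the sodium channel SCN8A by 1.80 on the left and SLC1A2 by 2.18 on the right. The neuronal ubiquitin hydrolase UCHL1 rose by 3.46 in placebo left cortex from 1 h to 6 h. These comparisons, too, cross campaigns.

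Across the 12 animals the right minus left differences of the 9 genes went together as a description, with a median correlation over 36 pairs of genes of 0.66 (n = 12 animals, lowest -0.054 for OLIG1 and MAL, highest 0.92 for MOBP and CLDN11). Each gene's correlation with the mean of the other 8 ran from 0.53 for OLIG1 and 0.57 for MAL to 0.94 for MBP. The genes are read from the same arrays, so they share any effect of an array. The list medians that went most closely with that of the 9 genes were those of other myelin proteins and of oligodendrocyte receptors and enzymes (0.94 each). Those of progenitors (0.68), genes of axon and node of Ranvier (0.66), transcription factors of the lineage (0.64) and myelin lipid synthesis (0.42) followed, with 0.32 for neuron markers, 0.27 for Schwann cell markers, 0.16 for endothelial and mural markers, 0.11 for astrocyte markers, 0.079 for microglia and macrophage markers and -0.31 for meninges and choroid plexus. For TatNR2B9c animal 3 at 6 h, which had the highest median of the 9 genes (1.79), the neuron markers were at -0.053 and the astrocyte markers at 0.11. For placebo animal 1 at 1 h (0.91) the neuron markers were at 1.51, the astrocyte markers at 0.96 and meninges and choroid plexus at -1.43. The part of tissue make-up in these differences was not tested. The 5 genes with the highest correlation to the mean of the 9 were EDG2 (0.94), CKLFSF5 (0.93), ENPP2 (0.93), ABCA7 (0.92) and EFNA2 (0.91). They were chosen for this likeness among the 14113 genes with a symbol, the 9 themselves left out.

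**Figure D5:**
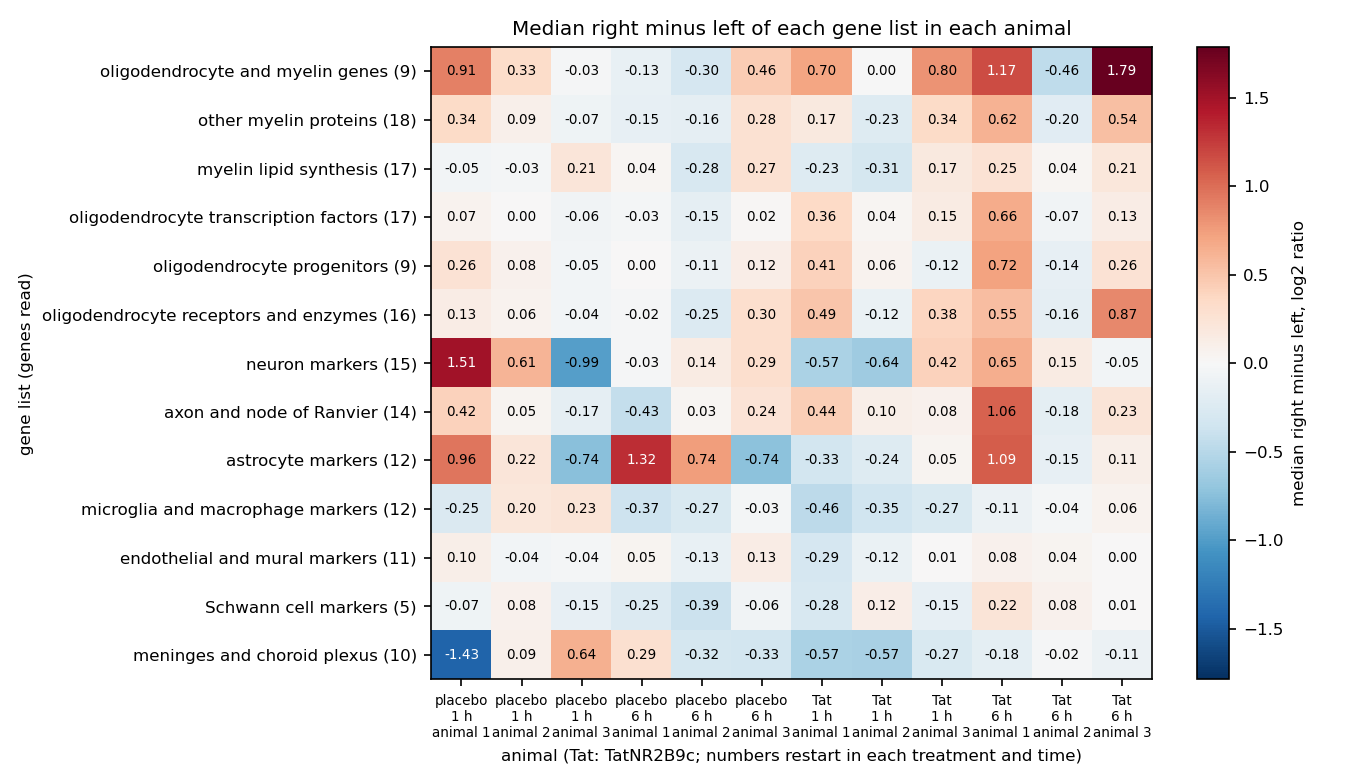
Median right minus left difference in log2 ratio of the 9 genes and of 12 other gene lists (vertical axis) in each of the 12 animals (horizontal axis); red is higher and blue lower on the right. The oligodendrocyte and myelin row and the row of other myelin proteins have the same sign in every animal, from -0.46 to 1.79 and from -0.23 to 0.62, while the astrocyte row has the opposite sign in 4 of 12.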

How the data were processed

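Two-colour arrays of 24 cortex samples were deposited as scanner output: per the file headers, the columns used hold mean signal and median background intensity of Cy5 (sample) and Cy3 (reference), the processed intensity of both, a log10 ratio of red over green, and flags (other) for spots above background or non-uniform. Per the file headers, placebo 1 h arrays were processed with Feature Extraction version 9.5.3.1, while placebo 6 h arrays had 10.5.1.1 and all TatNR2B9c arrays 10.7.3.1, the single version in the submitters' processing notes. The deposited series table held the same log10 ratios within 0.005, red over green, so that its scale, direction and lack of centring were known. Its column medians were 0.138, 0.0814 and 0 (placebo left 1 h), 0.0640, 0.0332 and 0.175 (placebo right 1 h), 0, 0 and 0.0289 (placebo left 6 h), 0.0206, 0.0206 and 0.0100 (placebo right 6 h), 0, 0 and 0.0357 (TatNR2B9c left 1 h), 0.0601, 0 and 0 (TatNR2B9c left 6 h) and 0 on the other arrays.

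Intensities were background-corrected (normexp, offset 50) and loess-normalized within arrays to log2 ratios, with the 1417 control spots at weight 0, in limma 3.58.1 under R 4.3.3. Non-uniform spots were left out and spots of a probe averaged. Probes were kept where all Cy5 signals of some group were well above background, as for 17226 of 20217; a gene was read by its brightest probe. One model with the 8 group means was fitted to all 24 arrays (16 residual degrees of freedom), with eBayes and two-sided Benjamini-Hochberg adjusted p over 15745 genes in each of 15 comparisons. The labels do not say that arrays came from separate extractions, so p-values measure the spread between these samples. Right and left arrays with the same number are read as 1 animal from the sample titles; the deviations of the 12 pairs correlated from -0.71 to 0.69, and 6 of 12 pairs were above 0.1. The script was tested on simulated data, and 15 alternatives were run, among them median centring of each array in place of loess, log2 ratios scaled to equal spread on all arrays, Cy5 alone (quantile-normalized between arrays), the software's processed signals, and slide or scan day as a block. Of the gene probes, 6626 were named by the newest annotations, 11168 only by the oldest and 2423 by none. A probe of PRG2, whose description holds MBP as an older symbol for another protein, was not taken. The members, lists and tests were chosen with earlier results of these data known. Besides members, the list genes with the largest called differences per comparison are named; 1 further gene of that rule is not reported here. Probe coordinates are those of the files.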

Additional observations from a re-analysis of the deposited data

How the results depend on the processing

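The right minus left medians kept their direction under the 5 normalizations, the direct use of the deposited ratios, averaged probes, array weights and the blocks on slide and scan day. No member was called in any of these, nor without the probe filter, in separate fits or with the animal as a block. With the 3 arrays of weak reference signal left out, placebo 1 h was at -0.047. Dropping the probe filter, separate fits and the animal block leave the members' right minus left medians unchanged by design, so only the calls could have changed there. The blocks on slide and scan day also leave these medians unchanged by design in every group but placebo 6 h. In the other groups both sides of each animal share a slide and a scan day, so the kept direction there is no check. With the animal as a replicate block the smallest adjusted p over the 12 animals was 0.856. Time and treatment comparisons depended on the normalization, and the cause was not tested. With the software's processed signals the medians were 1.27 (placebo 6 h minus 1 h, left), 0.58 (right), -0.10 and 0.40 (TatNR2B9c, left and right), -0.28 (TatNR2B9c minus placebo, right 1 h) and -0.70 (interaction at 1 h), with 3, 1, 1 and 0 members called in placebo time left, placebo time right, treatment left 1 h and treatment left 6 h. The deposited ratios gave 1.26, 0.58, -0.10, 0.40, -0.28 and -0.70, and the same counts. With median centring the same comparisons, in the order placebo time left and right, TatNR2B9c time right, treatment left 1 h, left 6 h, right 1 h and right 6 h, were at -0.93, -1.21, 0.019, -2.78, -1.97, -2.46 and -1.07. Right minus left with TatNR2B9c at 1 h was then 1.11 and the interaction at 1 h 0.60, and 3, 8, 5, 7 and 1 members were called in placebo time left and treatment left 1 h, left 6 h, right 1 h and right 6 h, where 76.3%, 77.1%, 19%, 67.1% and 3.05% of all genes were called. All genes moved too under median centring: in the order of the 7 medians, theirs were -0.89, -0.79, -0.46, -0.97, -0.53, -0.77 and -0.45. Equal spread gave 0.49, 0.053, 0.038 and 0.30 for time (placebo left and right, TatNR2B9c left and right), and -0.42 and -0.21 for treatment (left 6 h, right 1 h), with 0 members called in placebo time and in treatment left 6 h. Cy5 alone gave 0.048, -0.35 and 0.33 for time (placebo left and right, TatNR2B9c right), -1.22 and -0.70 for treatment at 1 h (left, right), 0.98 for right minus left with TatNR2B9c at 1 h and 0.61 for the interaction at 1 h, with 0 called in placebo time and 1 in each treatment comparison at 1 h. Array weights called 3 in TatNR2B9c time right, and groups fitted alone 0 in treatment left 6 h. Without the 3 arrays of weak reference signal, placebo time left was at 1.29 with 3 called, treatment left 1 h at -0.61 and the interaction at 1 h at 0.65.

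Sign changes are listed here only where the gene had an adjusted p under 0.05 in the main fit or in the alternative; others, where neither fit passed, are not. Those listed occurred in Cy5 alone (placebo time left: CLDN11 -0.66, MAG -0.47 and MOG -0.37; right: MOG -1.35 and OLIG1 -0.39; treatment right 1 h: CLDN11 -1.71), under equal spread (placebo time left: CLDN11 -0.27 and MOBP -0.070, right: MOG -0.35) and under median centring. In the last, before taking off the shift of all genes just given, placebo time left had CLDN11 -2.18, MAG -0.31, MAL -3.15, MOBP -1.48, MOG -1.27, OLIG1 -0.93 and OLIG2 -0.046, and right CLDN11 -2.81, MOBP -2.10, MOG -1.76, OLIG1 -0.96 and OLIG2 -0.20. Treatment left 1 h had CLDN11 -3.44, MAG -2.51, MOG -2.78 and OLIG1 -3.11, and right 1 h CLDN11 -2.93, MAG -2.46, MOBP -2.53, MOG -2.18, OLIG1 -2.60 and OLIG2 -2.09. Over all genes, calls in placebo time left numbered 8500 as reported, 4632 with processed signals, 12016 with median centring, 2031 under equal spread and 2283 in Cy5 alone, and in treatment left 6 h 3829, 28, 2992, 15 and 2591. Leaving out 1 array at a time changed the number of members called in treatment left 6 h (1 to 6), in placebo time left (6 to 8) and right (4 to 7), and in no other comparison. The medians then ran over 0.034 to 0.75 (right minus left, placebo 1 h), -0.19 to 0.23 (placebo 6 h), 0.41 to 0.79 (TatNR2B9c 1 h), 0.63 to 1.36 (TatNR2B9c 6 h), 0.39 to 0.59 (all animals), -0.19 to 0.51 and 0.47 to 1.32 (interactions at 1 h and 6 h), 1.80 to 2.18 and 1.16 to 1.86 (placebo time, left and right), 0.13 to 1.04 and 0.64 to 1.099 (TatNR2B9c time), -0.18 to 0.22 and 0.046 to 0.51 (treatment at 1 h, left and right) and -1.63 to -0.84 and -0.49 to 0.12 (at 6 h). The number of arrays limits the precision, and the dim reference signal of the placebo 1 h arrays limits their ratios.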
